A study of Mus musculus with 6 samples.

Results

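The T and NK cell genes are a set of 10 genes that encode the receptor complex and coreceptor of T cells, a proximal kinase, cell surface glycoproteins, and effector proteins of T and natural killer (NK) cells: Cd3e, Cd3g, Cd3d, Cd8a, Lck, Cd2, Thy1, Nkg7, Gzma and Gzmb. They were chosen by name, with earlier results of these data known. Every probe that the platform annotation pairs with a member was taken, and probes with a detection p-value below 0.05 on at least 3 of the 6 arrays were kept. The detection p-value compares a probe with negative control beads of the same array. Of the 10 members, 6 had an annotated probe: Cd3e, Cd3g, Cd3d, Cd2, Thy1 and Nkg7, each with 1 probe. Each of these 6 probes was detected on all 6 arrays, so none lay near the filter. The annotation at hand names only probes of the authors' processed table and pairs none with Cd8a, Lck, Gzma or Gzmb, which were not analysed here. The 6 probes stand among 13361 tested probes of 25697 on the array.

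RNA of whole lungs was measured on Illumina bead arrays, 1 array per mouse, in 3 mutant and 3 control mice. Mutant mice (Tmem1002loxP/2loxP;ROSA26+/CreER) carried 2 Tmem100 alleles flanked by loxP sites and a tamoxifen-activated Cre recombinase knocked into the ROSA26 locus, which is active in most cell types and therefore not limited to endothelium. Control mice (Tmem1002loxP/2loxP) carried the same floxed alleles without CreER. All 6 mice were injected with tamoxifen 2 times at 0.1 mg/g, and lungs were taken 7 days later, so CreER activity itself and loss of Tmem100 cannot be told apart in these groups. The sources used here give neither ages nor the chips on which the arrays sat. The comparison asks which transcripts differ in the lung after treatment meant to delete Tmem100.

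T cells recognise antigen through a receptor whose signalling chains are CD3 epsilon, gamma, delta and zeta. The kinase LCK, bound to CD4 or CD8, phosphorylates these chains and starts the cascade that runs through ZAP70 and the adaptor LAT. NK cells lack this receptor and read activating and inhibitory receptors instead, and both cell types kill with perforin and granzymes stored in cytotoxic granules. The lung holds resident T cells and, in mice, an abundant pool of NK cells in its vessels.

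The genes Cd3g, Cd3d and Cd3e lie next to each other on mouse chromosome 9, with Cd3g and Cd3d transcribed away from each other, and Nkg7 lies on chromosome 7. The promoters of these 4 genes are shown because they were the measured members for which a promoter was at hand. Each runs 5′ to 3′ on the gene's own strand, from 250 bases before to 50 bases after the start, in RefSeq's table for GRCm38.p6, which held 4 of the 6 measured members. Capitals mark the letters GGAA, the core bound by ETS factors, on either strand (TTCC when read on the strand shown).
Cd3e, chr9:45009562-45009861, minus strand: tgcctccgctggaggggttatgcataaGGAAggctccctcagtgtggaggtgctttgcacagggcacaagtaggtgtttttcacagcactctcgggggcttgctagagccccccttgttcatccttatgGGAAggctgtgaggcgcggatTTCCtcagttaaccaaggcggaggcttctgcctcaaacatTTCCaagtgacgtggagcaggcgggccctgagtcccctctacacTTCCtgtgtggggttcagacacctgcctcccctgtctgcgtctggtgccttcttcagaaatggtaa
Cd3g, chr9:44980382-44980681, minus strand: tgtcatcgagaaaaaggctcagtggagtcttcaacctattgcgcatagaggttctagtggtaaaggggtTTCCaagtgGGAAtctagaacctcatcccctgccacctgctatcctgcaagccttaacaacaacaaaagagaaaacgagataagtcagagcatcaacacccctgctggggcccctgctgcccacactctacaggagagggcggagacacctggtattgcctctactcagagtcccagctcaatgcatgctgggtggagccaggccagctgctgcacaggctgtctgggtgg
Cd3d, chr9:44981536-44981835, plus strand: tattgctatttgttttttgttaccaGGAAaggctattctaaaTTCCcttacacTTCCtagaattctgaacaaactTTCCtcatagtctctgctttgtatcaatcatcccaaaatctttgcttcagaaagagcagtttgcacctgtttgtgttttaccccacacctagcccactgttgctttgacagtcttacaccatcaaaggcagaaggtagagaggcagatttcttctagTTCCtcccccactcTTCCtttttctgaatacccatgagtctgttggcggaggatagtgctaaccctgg
Nkg7, chr7:43436888-43437187, plus strand: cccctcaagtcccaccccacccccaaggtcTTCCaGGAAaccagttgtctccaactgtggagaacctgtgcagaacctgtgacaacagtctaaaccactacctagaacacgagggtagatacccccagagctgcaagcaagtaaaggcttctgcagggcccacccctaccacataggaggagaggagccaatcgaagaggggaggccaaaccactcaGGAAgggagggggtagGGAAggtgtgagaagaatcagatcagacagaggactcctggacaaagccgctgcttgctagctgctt
The ETS core occurred 5 times for Cd3e, 2 times for Cd3g, 6 times for Cd3d and 4 times for Nkg7, and 96% of the 32851 promoters of the table hold it at least once, with a median of 3. The letters TATAAA of the TATA box were in none of the 4 windows on either strand, against 13.6% of all promoters. The RUNX core TGTGGT, searched on both strands like the others, was found 1 time in the Nkg7 window and in none of the CD3 windows, and 16.8% of all promoters hold it. The E-box CANNTG, which 72.3% of promoters hold, occurred 2 times for Cd3e, 4 times for Cd3g, 1 time for Cd3d and 2 times for Nkg7, and overlapped an ETS core by 1 site in Cd3g and 1 in Cd3e. These matches describe letters only.

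In mutant lungs, 3 of the 6 measured genes were lower and none was higher at an adjusted p below 0.05. Thy1 fell 2.32-fold, Nkg7 1.99-fold and Cd2 1.65-fold, while the CD3 chain genes Cd3e, Cd3g and Cd3d did not pass. Over all tested probes, 13.5% passed as lower and 13.3% as higher. The median log2 difference was -0.61 over the 6 probes and 0.03 over all tested probes. Values below are background-corrected, quantile-normalized log2 intensities, in which a difference of 1 is a doubling, and differences are mutant minus control. In whole tissue, fewer cells of a type and less RNA per cell cannot be told apart.

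**Figure D1:**
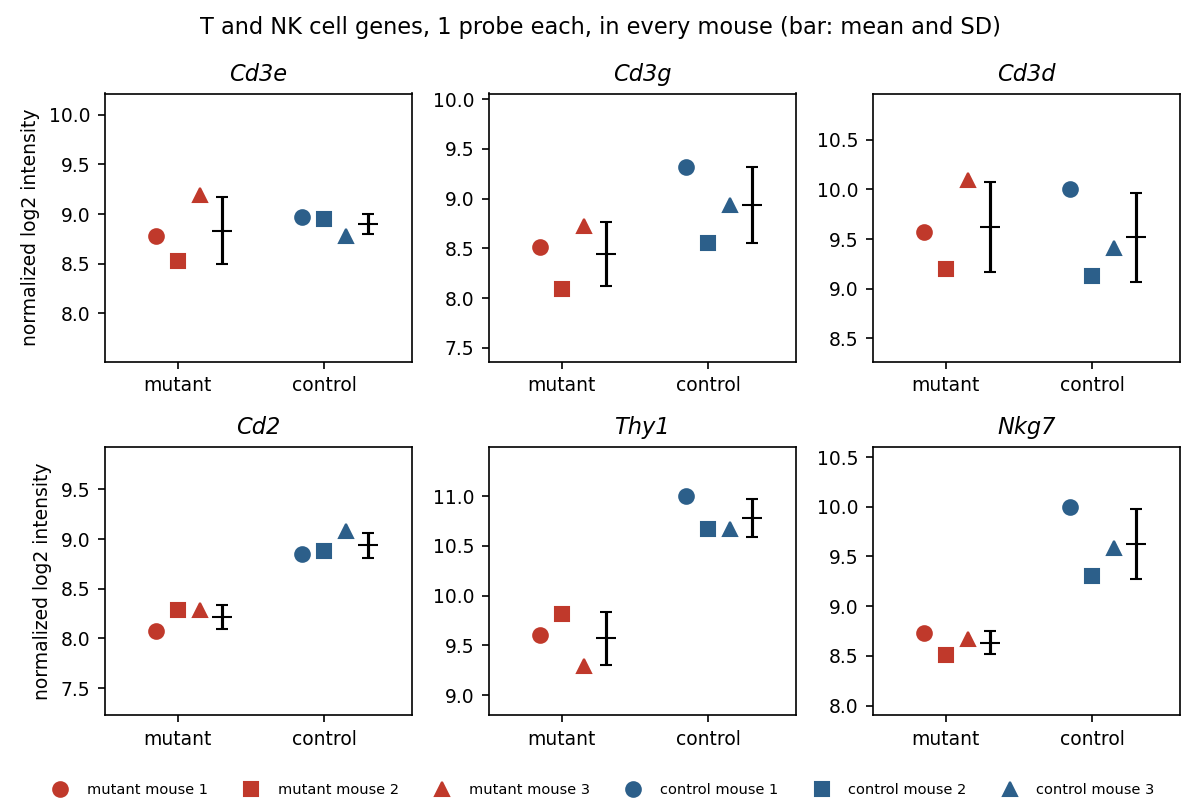
Normalized log2 intensity (vertical axis, equal span in every panel) of the 6 measured T and NK cell genes. The 3 mutant mice (red) stand left and the 3 control mice (blue) right. Symbols give the mouse number within its group, which was not taken to pair animals, and black bars the mean and SD. The groups separate for Cd2, Thy1 and Nkg7 and overlap for Cd3e, Cd3g and Cd3d.

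Among the receptor chains, Cd3e encodes CD3 epsilon, which pairs with either CD3 gamma or CD3 delta and is needed for the receptor to reach the surface. Its log2 intensity was 8.78, 8.53 and 9.19 in mutant mice 1, 2 and 3, and 8.97, 8.95 and 8.78 in control mice 1, 2 and 3. Mutant mouse 3 lay above all controls and mutant mouse 2 below all of them, so the groups overlapped on both sides. The log2 difference was -0.07 ± 0.18 (SE, n = 3 mice per group; limma's moderated test, adjusted p = 0.811). Its 95% interval, -0.49 to 0.36, spans a level 1.41-fold lower to 1.28-fold higher in mutants.

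Cd3g encodes CD3 gamma, which also carries a motif used to remove the receptor from the surface. It measured 8.52, 8.09 and 8.72 in mutant mice 1, 2 and 3, against 9.32, 8.56 and 8.94 in control mice 1, 2 and 3. Mutant mouse 3 lay above control mouse 2, and the other mutants lay below every control. The difference of -0.49 ± 0.24 on the log2 scale did not pass (adjusted p = 0.166), and its interval of -1.06 to 0.07 reaches a 2.08-fold lower level. With array weights, which give less weight to arrays that scatter more, it passed as lower (log2 difference -0.76, adjusted p = 0.0325), the only 1 of 15 alternative settings in which it did.

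Cd3d encodes CD3 delta, the partner chain of the second CD3 heterodimer. Its values were 9.57, 9.19 and 10.10 in mutant mice 1, 2 and 3, and 10, 9.13 and 9.41 in control mice 1, 2 and 3. The highest value belonged to a mutant and the lowest to a control, and the spread within each group (SD 0.45 among mutants and 0.44 among controls) exceeded the difference of 0.10 ± 0.29 (log2; adjusted p = 0.820). The interval, -0.59 to 0.79, allows a level up to 1.5-fold lower or 1.73-fold higher. The sign of this difference turned in 3 settings: -0.27 with array weights, -0.14 without mutant mouse 3 and -0.09 without control mouse 2. That of Cd3e turned to 0.08 without mutant mouse 2.

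The 3 chain genes ordered the mutant mice alike, with mouse 3 highest, mouse 1 between and mouse 2 lowest for each gene. Among controls, mouse 1 was the highest for each chain gene, and mouse 2 was the lowest for Cd3g and Cd3d but not for Cd3e.

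Cd2 encodes an adhesion and costimulatory receptor of T and NK cells that binds CD48 in mice. Its log2 intensity was 8.08, 8.29 and 8.29 in mutant mice 1, 2 and 3, against 8.85, 8.88 and 9.08 in control mice 1, 2 and 3. No mutant reached a control, with a gap of 0.56 between the groups. Before normalization the intensities were 518, 557 and 546 in mutants and 892, 750 and 805 in controls. Cd2 fell by 0.72 ± 0.12 on the log2 scale (adjusted p = 0.00882), with an interval of 1.34-fold to 2.02-fold lower.

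Thy1 encodes a small glycoprotein that is anchored in the membrane by a lipid and marks mouse T cells. It is not specific to them, since fibroblasts, neurons and some other stromal cells carry it too. Its log2 intensity was 9.60, 9.82 and 9.29 in mutant mice 1, 2 and 3, and 11.01, 10.67 and 10.67 in control mice 1, 2 and 3. The lowest control exceeded the highest mutant by 0.85, the widest gap of the 6 genes. Unnormalized intensities were 1003, 1120 and 823 in mutants, against 2882, 1866 and 1869 in controls. Thy1 fell by 1.21 ± 0.17 on the log2 scale (adjusted p = 0.00553; 95% interval 1.74-fold to 3.08-fold lower). Its order among the mutants was the reverse of that of the CD3 chain genes, with mouse 2 highest and mouse 3 lowest. Of 13 fibroblast markers tested, 9 fell, while Pdgfra, Pdgfrb, Dcn and Sparc did not pass. The summed normalized intensity of all 13 was 49558 to 53499 in mutants and 75587 to 99817 in controls. Col3a1 and Lum among them reached the filter only through the control arrays. Whether fibroblasts took part in the fall of Thy1 was not tested.

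Nkg7 encodes a membrane protein of cytotoxic granules that is needed for efficient granule release by NK cells and killer T cells. It measured 8.73, 8.51 and 8.67 in mutant mice 1, 2 and 3, and 10, 9.30 and 9.59 in control mice 1, 2 and 3. No mutant reached any control, and the controls scattered more (SD 0.11 among mutants and 0.35 among controls). The unnormalized intensities were 664, 606 and 629 in mutants and 1608, 900 and 1028 in controls. Nkg7 fell by 0.99 ± 0.19 on the log2 scale (adjusted p = 0.0116; 95% interval 1.46-fold to 2.71-fold lower). Control mouse 1 was its highest sample, and without that mouse the fall was 1.76-fold (adjusted p = 0.0310).

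**Figure D2:**
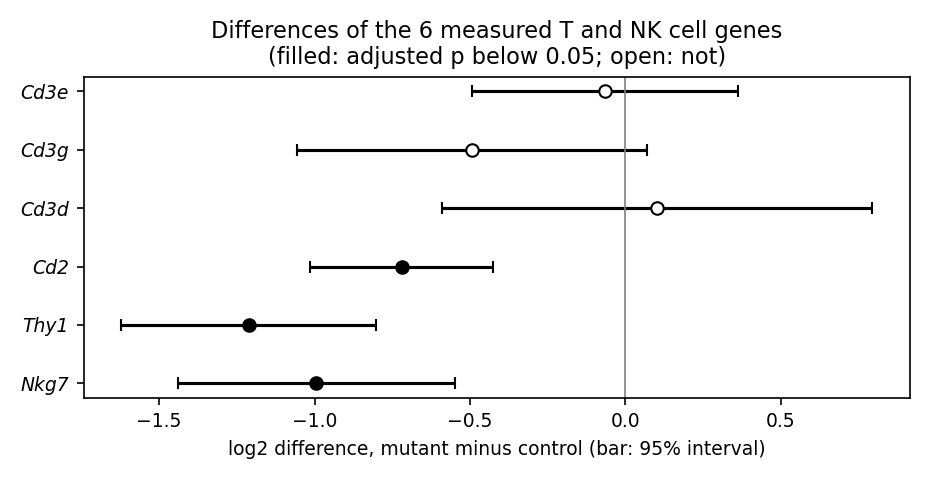
Log2 difference, mutant minus control (horizontal axis), of the 6 measured genes with 95% intervals from limma; filled points passed an adjusted p of 0.05 and open points did not. Cd2, Thy1 and Nkg7 lie left of 0 with their whole interval, and the intervals of the 3 CD3 chain genes include 0.

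The groups did not overlap for 3 of the 6 probes, all lower in mutants, while 23.0% of all tested probes were lower in mutants without overlap. The calls of Thy1, Cd2 and Nkg7 were kept in all 15 alternative settings. A call for these 3 genes and none for the CD3 genes does not show that the genes differ from each other. Splitting the 6 genes in this way follows from their outcomes, so no test of that difference is given.

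Among the wider T cell genes, 11 of 21 receptor and coreceptor genes were tested, 2 fell and none rose. Over all tested genes, 14.5% passed as lower and 12.7% as higher, so 2 of 11 lies near the share of the whole array. The median log2 difference was -0.07, and 0.01 over all tested genes. Besides Cd2, Cd27, a costimulatory receptor of the TNF receptor family, fell by 0.88 ± 0.14 (log2; adjusted p = 0.00763), but its second probe differed by -0.40 and did not pass. When probes of 1 gene were averaged, 1 gene of this list passed. Cd247, which encodes CD3 zeta, differed by 0.22 ± 0.20, and Cd8b1, the beta chain of the CD8 coreceptor, by 0.03 ± 0.27 at its brighter probe and -0.43 at the other, and neither passed.

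Downstream of the receptor, 17 of 27 signalling genes were tested, 5 fell and 1 rose, with a median of -0.05. The shares of all tested genes were 14.5% lower and 12.7% higher. Rasgrp1, which activates RAS after receptor engagement, fell by 1.16 ± 0.17 on the log2 scale. Ptpn6, encoding the inhibitory phosphatase SHP-1, fell by 1.05 ± 0.16, and Csk, the kinase that restrains LCK, fell by 0.91 ± 0.13. Ptpn22, an inhibitory phosphatase that works with CSK, rose by 1.33 ± 0.21. Zap70, the kinase recruited to phosphorylated CD3 chains, differed by 0.04 ± 0.20, and Lat, its adaptor substrate, by 0.18 ± 0.28, and neither passed (adjusted p = 0.893 and 0.656). Several genes of this list, Ptpn6 and Csk among them, are expressed by leukocytes of other kinds as well.

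Of 16 T cell identity and recirculation genes, 8 were tested, 3 fell and 1 rose, with a median of -0.13. Among all tested genes 14.5% were called lower and 12.7% higher. Ikzf1, the lymphoid factor Ikaros, fell by 1.10 ± 0.17 (log2), Gata3, a factor of helper T cells and innate lymphoid cells, by 0.72 ± 0.17 and Bcl11b, which holds T cell identity, by 0.48 ± 0.15. Without background correction Ikzf1 differed by -0.38. Rora, a nuclear receptor that many cell types express, rose by 0.98 ± 0.12. The call of Gata3 was lost without any of mutant mice 2 and 3 and control mice 1, 2 and 3 (adjusted p up to 0.0712), and that of Bcl11b in 9 of 15 settings, among them without any mouse but control mouse 2 (adjusted p up to 0.133). The count of falls in this list was 1 without mutant mouse 2, control mouse 1 or control mouse 3.

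Of 15 regulatory T cell and checkpoint genes, 8 were tested, 2 fell and 1 rose, with a median of -0.11. For these and the cytokine genes below, the shares of all tested genes were 14.5% lower and 12.7% higher. Havcr2, which encodes the inhibitory receptor TIM-3 of T, NK and myeloid cells, fell by 0.92 ± 0.18 at its brighter probe, and its other probe fell too. At the brighter probe it differed by -0.33 without background correction, and the call was lost with the deposited values (adjusted p = 0.0699). Cd44, an adhesion receptor of activated T cells and many other cells, fell by 1.02 ± 0.15 at its brightest probe while another of its 3 probes rose by 0.67. Tnfrsf4, the costimulatory receptor OX40, rose by 0.69 ± 0.11. Foxp3, the defining factor of regulatory T cells, differed by 0.08 ± 0.16 and did not pass. Of 13 T cell cytokine genes, 4 were tested: Ltb, encoding lymphotoxin beta, fell by 0.63 ± 0.15, and the type 2 cytokine gene Il13 rose by 0.49 ± 0.14 (adjusted p = 0.0392). The call of Il13 was lost in 12 of 14 settings, among them without any mouse but control mouse 3 (adjusted p up to 0.291). That of Ltb was lost with the deposited values and without mutant mouse 1, control mouse 1 or control mouse 3 (adjusted p up to 0.0787).

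Of 29 NK receptor and identity genes, 10 were tested, 7 fell and none rose, with a median log2 difference of -1.07. Their summed intensity was 1586 to 1928 in mutants and 2847 to 3969 in controls, with no overlap. Klre1, Klra7 and Itga2, 3 of the 7 that fell, reached the filter only through the control arrays, where they were brighter. This count, median and sum therefore describe the probes and are not set against the share of all genes. Of the 6 genes detected on all 6 arrays, 4 fell (Klra4, Ccl5, Tyrobp and Cd160), and Klrd1 and Cd226 did not pass. Over all tested genes, not all of them detected on every array, 14.5% passed as lower and 12.7% as higher. All 3 mutant arrays lacked detection of Klre1, an NK lectin receptor gene, which passed as lower (adjusted p = 0.00582, for the difference without a bound). Its fall was at least 1.87-fold, a bound set by the lowest signal among detected probes after background correction. It holds for that scale only, since without background correction Klre1 was 1.5-fold lower and with the deposited values 1.42-fold lower. Klra7 and Klra4, of the Ly49 receptor family, fell by 2.17 ± 0.35 and 1.26 ± 0.22 on the log2 scale, and without background correction they differed by -0.73 and -0.60. Taking Klre1 at its bound put the median of the list at -0.96. Ly49 genes are near-identical copies, so which of them these probes measured is uncertain, and Klra7 was detected on 1 of the 3 mutant arrays.

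Itga2, the integrin chain CD49b that marks mouse NK cells and platelets, fell by 1.21 ± 0.28, also with detection on 1 mutant array, and differed by -0.33 without background correction. Its call was lost without any of mutant mice 2 and 3 and control mice 1, 2 and 3 (adjusted p up to 0.0689). Ccl5, a chemokine gene of NK and memory T cells, fell by 1.12 ± 0.27 and Tyrobp, the adaptor of activating NK receptors that myeloid cells use too, fell by 1.03 ± 0.20. Klrd1, which encodes CD94, the partner of the NKG2 receptors, differed by -0.16 ± 0.21 and did not pass (adjusted p = 0.617). Of this list 5 or 6 genes fell with any 1 mouse left out, and 3 fell when probes had to be detected at p below 0.01 on all 6 arrays, a filter that removes probes dim in mutants.

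Of 22 granule genes, 12 were tested, 2 fell (Nkg7 and Ctsw) and 1 rose, with a median of -0.21, and both counts lie near the 14.5% lower and 12.7% higher of all tested genes. Ctsw, a cathepsin of NK and killer T cells, fell by 0.88 ± 0.22 on the log2 scale (adjusted p = 0.0280). Serpinb6b, a serpin expressed by NK cells, rose by 0.74 ± 0.21 (adjusted p = 0.0424). Prf1, which encodes the pore former perforin, was 9.83, 9.84 and 11.06 in mutant mice 1, 2 and 3 and 10.65, 10.05 and 10.66 in control mice 1, 2 and 3. Its highest value was that of mutant mouse 3, the mutant that was also highest for the CD3 chain genes, and its difference of -0.21 ± 0.35 did not pass. The call of Ctsw was lost in 5 of 15 settings (adjusted p up to 0.0783) and that of Serpinb6b in 9, among them without any mouse but mutant mouse 3 (up to 0.105). The count of falls was 1 without mutant mouse 1, mutant mouse 2, control mouse 1 or control mouse 3.

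**Figure D3:**
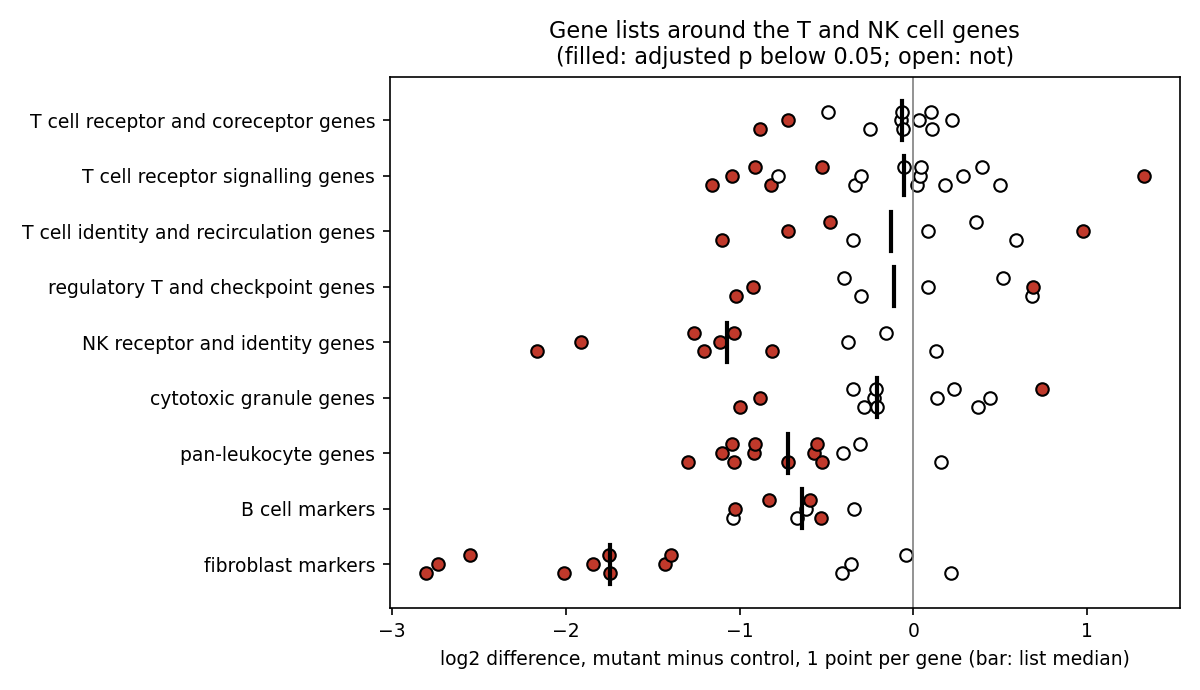
Log2 difference, mutant minus control (horizontal axis), of every tested gene in 9 gene lists, 1 point per gene; filled points passed an adjusted p of 0.05, open points did not, and bars mark list medians. The medians are -0.07 for T cell receptor genes, -1.07 for NK receptor genes and -0.72 for pan-leukocyte genes. Klre1, Klra7 and Itga2 of the NK receptor list reached the filter only through the control arrays, where they were brighter. So did Col3a1 and Lum of the fibroblast list and Blnk of the B cell list. The same holds for Sh2d1a of the signalling list and Cst7 of the granule list. Fyn of the signalling list reached it only through the mutant arrays. Blnk, Sh2d1a, Cst7 and Fyn did not pass.

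Pan-leukocyte genes, which T and NK cells share with other leukocytes, and markers of other cells are given next, and their part in the falls was not tested. Of 20 pan-leukocyte genes, 13 were tested, 10 fell and none rose, with a median of -0.72. Among all tested genes, 14.5% passed as lower and 12.7% as higher, and the median was 0.01. Cd52, a surface glycoprotein of lymphocytes and monocytes, fell by 1.30 ± 0.16 on the log2 scale, Rac2, a GTPase of blood cells, by 1.10 ± 0.22 and Lsp1, a leukocyte actin-binding protein, by 1.03 ± 0.17. Their summed intensity was 39185 to 44120 in mutants and 54029 to 65591 in controls. The count of falls was 5 without mutant mouse 1 or control mouse 1 and 6 without mutant mouse 3. Ptpn6 and Vav1 stand in both this list and the signalling list.

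Of 15 B cell markers, 8 were tested, 4 fell and all 8 differences were negative. The median of the list was -0.64, or -0.61 with Blnk, which no mutant array detected, at its bound. Blnk reached the filter only through the control arrays, where it was brighter. This count, the signs and the median therefore describe the probes and are not set against those of all genes. At their tested or brighter probes, Fcmr, Cd79b, Blk and Blnk did not pass. Fcer2a, a low affinity IgE receptor, fell by 1.03 ± 0.19, and Fcrla, an Fc receptor-like protein of B cells, by 0.83 ± 0.14, with all 3 of its probes falling. Fcer2a differed by -0.28 without background correction, and its call was lost with the deposited values (adjusted p = 0.0524). Cd22 (-0.59 ± 0.17), a B cell inhibitory receptor, and Cd79a (-0.53 ± 0.16), a B cell receptor chain, had adjusted p of 0.0430 and 0.0487. Their calls were lost in 12 of 14 and 8 of 15 settings (adjusted p up to 0.157 and 0.124), Cd22 without any mouse but mutant mouse 1 and Cd79a without any mouse but control mouse 3. With any 1 mouse left out 2 or 3 of the B cell markers fell, 2 of them without mutant mouse 2, control mouse 1 or control mouse 2. The summed intensity of the list was 1967 to 3926 in mutants and 4693 to 5484 in controls.

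Lymph node tissue at the lung root and stroma were examined in the same way. Of 10 lymph node stroma markers, 6 were tested and 4 fell, among them Fcer2a, which also stands in the B cell list. Ccl19 and Cxcl13 differed by 0.19 ± 0.12 and 0.32 ± 0.34 on the log2 scale, and neither passed. Ccl21b and Ccl21a, near-identical chemokine genes that lymphatic vessels of the lung also express, fell by 2.44 ± 0.29 and fell by 2.29 ± 0.27 on the log2 scale, in that order, and which copy each probe measured is uncertain. Chst4, a sulfotransferase of lymph node vessels, fell by 0.87 ± 0.24, and it differed by -0.23 without background correction. It was detected on 1 mutant array and reached the filter only through the control arrays, so the count of this list is not set against the share of all genes. Its call was lost in 8 of 14 settings, among them without any mouse but mutant mouse 2 (adjusted p up to 0.239). The summed intensity of the list, in which Ccl21a and Ccl21b were the brightest genes, was 1808 to 3468 in mutants and 9406 to 12983 in controls. Of 12 thymocyte markers only Cd1d1 was tested, which antigen-presenting cells express too, and it fell by 2.23 ± 0.38, or differed by -1.24 without background correction, while the defining thymocyte genes Rag1, Rag2, Dntt and Ptcra were not analysed here.

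Of 14 fibroblast markers, 13 were tested, 9 fell and none rose, with a median of -1.75 on the log2 scale. Col3a1 and Lum, both among the 9, were detected on 1 mutant array each and reached the filter only through the control arrays. This count and median therefore describe the probes and are not set against the share of all genes. Mfap4 and Fbln1, of elastic fibres, differed by -2.81 ± 0.38 and -2.74 ± 0.24, and the collagen genes Col3a1 and Col1a1 by -2.55 ± 0.41 and -2.01 ± 0.30, and each of these passed. Without background correction Col3a1 differed by -0.99. Pdgfra, Pdgfrb and Dcn differed by -0.04 ± 0.17, -0.36 ± 0.15 and 0.22 ± 0.13 at their tested or brighter probes, and none passed. Sparc differed by -0.41 ± 0.13 at its brighter probe and did not pass, while its other probe fell by 0.51 (adjusted p = 0.0465). Of 12 neuron and Schwann cell markers, 3 were tested: Stmn2, a neuronal tubulin-binding protein, fell by 1.30 ± 0.30, and Uchl1, a ubiquitin hydrolase of neurons, rose by 1.17 ± 0.14, or 0.41 without background correction. The call of Stmn2 was lost without mutant mouse 1, control mouse 1 or control mouse 2 (adjusted p up to 0.0725).

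Of 9 neutrophil markers tested of 11, none passed in limma's test, also at an unadjusted p of 0.05, and 1 passed without control mouse 3. The genes with the smallest p were Lcn2, an iron-sequestering protein (0.42 ± 0.37), and Retnlg, a resistin-like protein (0.59 ± 0.77). Their summed intensity was 24955 to 33444 in mutants and 12098 to 54610 in controls, the highest being control mouse 1, which was also the highest control for Thy1, Nkg7 and the CD3 chain genes. Of 14 macrophage and monocyte markers, 7 were tested and 2 fell, where 14.5% of all tested genes did. They were Cx3cr1, a chemokine receptor of patrolling monocytes and NK cells (-2.54 ± 0.19), and Adgre1, a macrophage surface marker (-0.91 ± 0.16), whose other probe did not pass. Cx3cr1 differed by -1.11 without background correction. The red cell gene Hba-a1 had a normalized intensity of 871 to 1111 in mutants and 385 to 64089 in controls and did not pass (adjusted p = 0.238). It passed as lower without control mouse 3 (adjusted p = 0.00584).

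**Figure D4:**
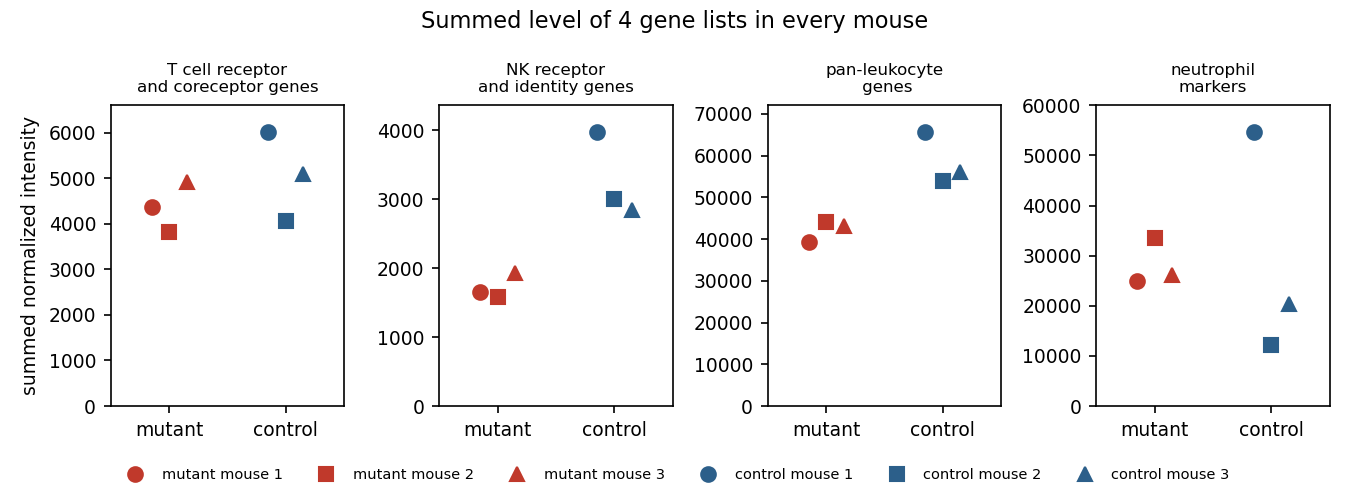
Summed normalized intensity (vertical axis, from 0) of the tested genes of 4 lists in the 3 mutant (red, left) and 3 control (blue, right) mice. The groups separate for NK receptor genes (1586 to 1928 in mutants, 2847 to 3969 in controls) and pan-leukocyte genes, and overlap for T cell receptor genes (3822 to 4910 in mutants, 4061 to 6010 in controls) and neutrophil markers. The NK receptor sum includes Klre1, Klra7 and Itga2, which reached the filter only through the control arrays.

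The tissue label was checked with lung epithelium markers, of which 11 of 12 were tested and all 11 were detected on every array. Of these Cldn18, a claudin of alveolar cells, fell by 0.79 ± 0.17 on the log2 scale and none rose. Its call was lost when control mouse 1 or 2 was left out (adjusted p up to 0.0528). Tmem100 had 1 probe, with log2 intensities of 8.44, 9.43 and 9.51 in mutants and 11.16, 15.36 and 10.69 in controls (adjusted p = 0.0749), with no overlap, and whether the probe lies in the deleted part is not known. Arrays detected 12781 to 13046 probes in mutants and 13354 to 13749 in controls. Precision is limited by there being 3 arrays per group.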

How the data were processed

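Lung RNA of 3 mutant and 3 control mice, grouped by sample titles, was hybridised to Illumina arrays, per the labels' protocols. The deposited table without normalization, per the file headers, holds 1 linear intensity and 1 detection p-value per probe and array. The submitters' processing notes name GenomeStudio 2009.2 and R 2.4.1. Whether background had been subtracted is not stated there. The deposited processed log2 table of 13261 probes has the same distribution in every column, and in it mutant mice 1 and 2 have identical values at all 13261 probes, which follow the intensities of mutant mouse 2. It served only as an alternative, with 3 controls and 2 mutants.

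The neqc function (limma 3.58.1, R 4.3.3) processed the intensities (background from detection p-values, offset 16, quantile normalization, log2). Probes detected (p below 0.05) on 3 or more arrays were tested with lmFit and eBayes, with no covariate, and Benjamini-Hochberg adjustment ran over 13361 probes. Symbols were updated by Entrez identifier for 12490 of 12495 annotated probes. In the lists, a gene was represented by its brightest tested probe. Summed intensities add the normalized values of the tested genes of a list on the linear scale. The fit was tested on simulated data.

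The members and lists were chosen with earlier results of these data known. Named genes were all members, Tmem100 and, for each list, the 4 most changed genes that passed, or 2 with the smallest p where none did. Cd247, Cd8b1, Zap70, Lat, Foxp3, Prf1, Ccl5, Tyrobp, Cd160, Klrd1, Cd226 and Vav1 were named after their values were seen. So were Lum, Pdgfra, Pdgfrb, Dcn, Sparc, Ccl19, Cxcl13, Fcmr, Cd79b, Blk, Blnk, Sh2d1a, Cst7 and Fyn. Same-numbered mice did not deviate together across probes (correlations of -0.0857, -0.0140 and -0.0364). Such values cannot show that the mice were unpaired. The titles state no pairs, so the numbers were taken only to name mice. Alternatives were other background corrections, scaling, filters, variance models, array weights, the deposited values, the mouse number as a block, the mean of a gene's probes and each mouse left out.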

Additional observations from a re-analysis of the deposited data

How the results depend on the processing

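Thy1, Cd2 and Nkg7 fell in each of 15 alternative settings, with adjusted p of 0.00150 to 0.0253, 0.00366 to 0.0349 and 0.00352 to 0.0370. Their falls were smaller without background correction (1.96, 1.33 and 1.59-fold), which leaves a constant signal under every probe. The adjusted p of Cd3g was 0.0325 to 0.410, that of Cd3e 0.234 to 0.940 and that of Cd3d 0.427 to 0.926. With 1 mouse left out, the log2 difference was -0.24 to 0.082 for Cd3e and -0.14 to 0.35 for Cd3d. The difference changed sign for Cd3d with array weights (-0.27), without mutant mouse 3 (-0.14) and without control mouse 2 (-0.09), and for Cd3e without mutant mouse 2 (0.08). It also changed for the neutrophil genes Retnlg with array weights (-0.43) and Lcn2 without control mouse 2 (-0.0054, the range over left-out mice reaching 0.75). None of these passed in either setting.

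With the mouse number as a replicate block, adjusted p was 0.0160 for Thy1, 0.0245 for Cd2, 0.0187 for Nkg7 and 0.0913 for Cd3g, 2 B cell markers fell, and no cytokine (0) and no granule gene (0) rose. The titles do not state that these numbers pair the mice. Among counts of list genes, those of B cell markers that fell were 2 with the deposited values, with no filter and with detection at 0.01 on all 6 arrays. With that stricter filter, which leaves fewer genes, 3 NK genes, 2 lymph node genes, 1 macrophage gene and 1 regulatory gene fell, 2 identity genes rose, and 0 cytokine and 0 neuron genes rose. With the deposited values, 2 lymph node genes, 1 regulatory gene and 0 cytokine genes fell, and 0 cytokine and 0 granule genes rose. With normexp, without background correction and with a variance trend, 2 identity genes and 0 cytokine genes rose. With median scaling and with no filter, 0 cytokine and 0 granule genes rose. Median scaling put 57.8% of all calls on the lower side, against 50.3%. With array weights, 2 signalling, 2 regulatory, 2 granule and 1 macrophage gene rose. With probes averaged per gene, 1 receptor gene and 1 regulatory gene fell and 2 identity genes rose. For these changes the cause was not tested.

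With 1 mouse left out, which leaves fewer arrays, 899 to 1544 of all probes fell and 780 to 1533 rose, the fewest without control mouse 1. Genes that fell were 5 to 8 for the pan-leukocyte list and 2 to 3 for B cells. They were 1 to 2 for identity and for granule genes, and 0 to 1 for cytokine, red cell, epithelium, neuron and neutrophil genes. Genes that rose were 1 to 2 for identity, signalling and regulatory genes and 0 to 1 for cytokine, granule and macrophage genes. Of all differences of named genes under the alternatives, 631 kept direction and side of the threshold, 84 lost the call, 2 gained one and 6 changed sign.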
